A study of Mus musculus with 12 samples.

Results

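Actomyosin and contractile genes were followed in immortalized mouse embryonic fibroblasts (MEFs) labelled wild type (WT) or knockout (KO) for Sirt3, which encodes a mitochondrial protein deacetylase. The set held 44 genes of the 34866 genes listed. The genes were chosen by symbol for what they encode, namely actins, transgelins and calponins, myosin chains and their kinase, tropomyosins, other thin filament proteins, the intermediate filament genes Des and Vim, adhesion and crosslinking proteins, PDZ-LIM and LIM-only proteins, and the transcription factors Srf and Myocd. All 44 genes were found, each under 1 identifier, and 39 averaged 1 TPM or more (a level scaled by transcript length and by the total of its library) over the 12 libraries. The other 5, Actc1, Myh11, Mylk, Pdlim3 and Myocd, lay under this level and were not tested.

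The 4 groups were WT and KO MEFs of each sex, with 3 libraries of polyadenylated RNA each. WT embryos were of strain 129S1/SvImJ with intact Sirt3 and KO embryos came from a Sirt3 knockout stock, both taken at 13 days. Every line, WT lines included, carries SV40 T antigen from stable transfection, a viral protein that drives continued division, and no treatment is stated. RNA was taken from passage 6 cells 48 h after seeding. Wells were seeded in triplicate and the number of embryos or lines per group is not stated, so the p-values measure the spread between wells. With 1 line per group, the genotype or the sex and the line cannot be told apart. WT and KO embryos came from different stocks, so genotype and stock cannot be told apart whatever the number of lines. Total Sirt3 mRNA was 6.59 to 9.07 TPM in male WT, 8.88 to 11.0 in male KO, 7.40 to 8.69 in female WT and 7.57 to 9.06 in female KO libraries, so it was not lower in KO, and KO means a library labelled KO throughout. TPM carry no read totals, and the depth behind each value is unknown.

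Of 8 fibroblast markers 7 averaged 1 TPM or more, with a summed level of 4691 to 8176 TPM over the libraries, mostly collagen genes, and Lum stayed at or under 0.489 TPM. The skeletal muscle regulators Myod1 and Myog did not exceed 0.124 TPM, but Mylpf and Tnnt3 of the same list reached 5.87 and 5.44 TPM. The haematopoietic marker Ptprc did not exceed 0.116 TPM, but Cd68 ran from 3.95 to 9.93 TPM. Pericyte and vascular smooth muscle markers were mixed. Rgs5 and Kcnj8 did not exceed 0.533 TPM, while Cspg4 ran from 20.5 to 59.0 TPM and Hspb6 from 56.2 to 119 TPM. Summed skeletal muscle markers (8 genes, 2 at 1 TPM or more) ran from 0.727 to 9.24 TPM, cardiac markers (6 genes, 1 at 1 TPM or more) from 0.944 to 7.42, and haematopoietic markers (5 genes, 1 at 1 TPM or more) from 4.25 to 11.0. Pericyte and vascular smooth muscle markers (7 genes, 4 at 1 TPM or more) summed to 93.7 to 101 TPM in male WT, 157 to 183 in male KO, 105 to 118 in female WT and 112 to 124 in female KO. Epithelial markers (6 genes, 3 at 1 TPM or more) summed to 76.1 to 77.8 TPM in male WT, 19.8 to 22.9 in female WT and 7.40 to 10.3 in KO libraries of either sex. Endothelial markers (4 genes, 1 at 1 TPM or more) summed to 4.72 to 5.76 TPM in female WT and 1.40 to 2.25 in the other groups, with Pecam1 and Cdh5 at or under 0.604. The fibroblast sum was 5562 to 6278 TPM in WT males and 7470.5 to 8176 in male KO, and 4691 to 4880 in female WT and 6359 to 6562 in female KO. The low cardiac sum was 3.86 to 4.81 TPM in male WT and 0.944 to 3.05 in male KO, and 5.14 to 7.42 in female WT and 2.95 to 4.65 in female KO. Tnnt3 of the skeletal muscle list was at 0 to 0.291 TPM in male WT and 0.804 to 5.44 in male KO. In females it was at 0 to 0.575 TPM in WT and 1.35 to 2.66 in KO. The pericyte, epithelial, endothelial, fibroblast and cardiac lists and Tnnt3 thus moved with groups compared here, and their part in the results was not tested.

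In fibroblasts, myosin II filaments built from heavy chains and light chains pull on actin filaments, and the resulting stress fibres end at focal adhesions, where vinculin, talin and zyxin tie them to integrins. Tropomyosins, calponins, caldesmon and transgelins coat or bundle the filaments. When a fibroblast turns into a myofibroblast it adds smooth muscle proteins such as alpha smooth muscle actin (Acta2). Many of these genes are transcribed by serum response factor (Srf) bound to a CArG box, together with myocardin-related cofactors that are held in the cytoplasm by unpolymerized actin.

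Promoters are shown because the CArG box is the known element of this gene family. RefSeq promoters of build GRCm38.p6, 250 bases before to 50 bases after the annotated start, were given for 38 of the 44 genes in 45 windows, with no entry for Actb, Actg2, Csrp2, Myh11, Myocd and Tagln. A CArG box was searched on both strands as CC, then 6 bases that are each A or T, then GG. No mismatch was allowed, so a window without a match may still hold a variant of the box. That of Acta2 holds ccctatatgg and ccttgtttgg, which miss the searched form only by a C or G among the 6 middle bases. It stood in 8 of 45 windows (17.8%), against 1.63% of all 32851 windows, namely those of Acta1, Actc1, Actg1, Cnn2, Myl6, Myl9, Srf and Vcl. The MCAT element CATTCC, on either strand, stood in 17 windows (37.8%, against 14.7% of all). TATAAA, which can share letters with a CArG box, stood in 7 (15.6%, against 13.6% of all). The following 80 bases, written 5′ to 3′ on the strand of the gene, hold the CArG box in capitals for 4 genes that behaved differently in these libraries. The box begins 73 bases before the start in Acta1 (chr8:123894789-123894868, minus strand), 161 before in Myl9 (chr2:156775283-156775362, plus strand), 227 before in Vcl (chr14:20929151-20929230, plus strand), and 82 and 62 before in Srf (chr17:46556185-46556264, minus strand). The bases just after the Acta1 start were not found in an annotated transcript, unlike those of Myl9, Vcl and Srf, so its distance is less certain.
Acta1: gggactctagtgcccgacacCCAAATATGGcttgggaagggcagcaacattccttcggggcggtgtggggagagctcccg
Myl9: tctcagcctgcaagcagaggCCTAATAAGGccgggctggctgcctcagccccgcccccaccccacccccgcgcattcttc
Vcl: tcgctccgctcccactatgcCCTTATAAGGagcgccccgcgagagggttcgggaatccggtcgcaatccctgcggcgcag
Srf: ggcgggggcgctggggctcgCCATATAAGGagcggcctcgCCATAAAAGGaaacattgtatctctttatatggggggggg
As given below, Acta1 was lower in male KO, Myl9 was higher and Vcl lower in KO of both sexes, and Srf itself did not pass in either sex. Genes with the element in this window therefore moved in both directions.

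The contractile genes were highly expressed. Of the 44 genes, 30 averaged 100 TPM or more and 8 averaged 1000 TPM or more, and together they held 2.65 ± 0.0487% of all TPM in male WT, 2.68 ± 0.0213% in male KO, 2.86 ± 0.000493% in female WT and 2.93 ± 0.0109% in female KO libraries (SD, n = 3 each). Levels repeated closely within groups, with a median coefficient of variation of 3.23% over the tested genes, so that small fold changes could pass the test. The highest coefficient of variation was 148%, that of Des in female KO libraries, where it was near 0.

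Libraries labelled KO were compared with those labelled WT within each sex. Between male KO and male WT libraries 15 of 39 genes passed (limma on log2(TPM + 1), Benjamini-Hochberg adjusted p under 0.05 over 12504 genes), against 21.6% of all genes tested. Of these 7 were higher in KO, against 10.7% of all, and 8 lower, against 10.9% of all. The median log2 difference of the 39 genes was 0.0031, and that of all genes -0.015. In females 15 of 39 passed as well, against 11.5% of all genes tested, with 9 higher (5.63% of all) and 6 lower (5.84% of all) and a median of -0.0091 against -0.023 for all genes. Calls were commoner among well-expressed genes in general: of 3520 genes averaging 50 TPM or more, a level chosen after the values were seen, 28.9% passed in males and 17.2% in females, while 13 and 14 of the 33 contractile genes at that level did. The female count was the less stable of the 2: without female WT replicate 3 it was 9, with the replicate number as a block 7, and without a mean-variance trend only Acta2, Cnn1 and Des passed.

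The contractile genes did not move one way as a group in either sex. In KO of both sexes Myl9, Tpm4 and Csrp1 were higher and Cnn1, Myl12a, Tpm2 and Vcl lower, and no gene passed in opposite directions. Leaving out 1 library could remove the female calls of Myl9, Csrp1, Myl12a and Vcl and the male calls of Myl12a and Tpm2. With the replicate number as a block, the female calls of Csrp1, Myl12a, Tpm2 and Vcl were lost. In males alone Acta1, Myh10, Tpm3 and Pdlim7 passed as lower and Actg2, Actb, Zyx and Csrp2 as higher. In females alone Acta2, Tagln2, Cnn2, Myh9, Myl6 and Flna passed as higher and Des and Flnc as lower. The remaining 16 tested genes passed in neither sex: Actg1, Tagln, Cnn3, Myl12b, Tpm1, Cald1, Smtn, Lmod1, Tnnt2, Vim, Tln1, Actn1, Actn4, Pdlim1, Pdlim5 and Srf. A pass in 1 sex only is not a difference between the sexes, which was tested as the sex by genotype interaction, the male KO effect minus the female KO effect in a fit of all 12 libraries. That interaction passed for 11 of 39 genes, against 13.0% of all genes tested. It was positive for Csrp2, Des, Smtn, Pdlim5 and Zyx (5 genes, 6.70% of all) and negative for Acta1, Acta2, Cnn2, Cnn3, Myh10 and Myl6 (6 genes, 6.33% of all). Des reached the filter for testing only through female WT, so its female and interaction calls rest on that group.

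**Figure D1:**
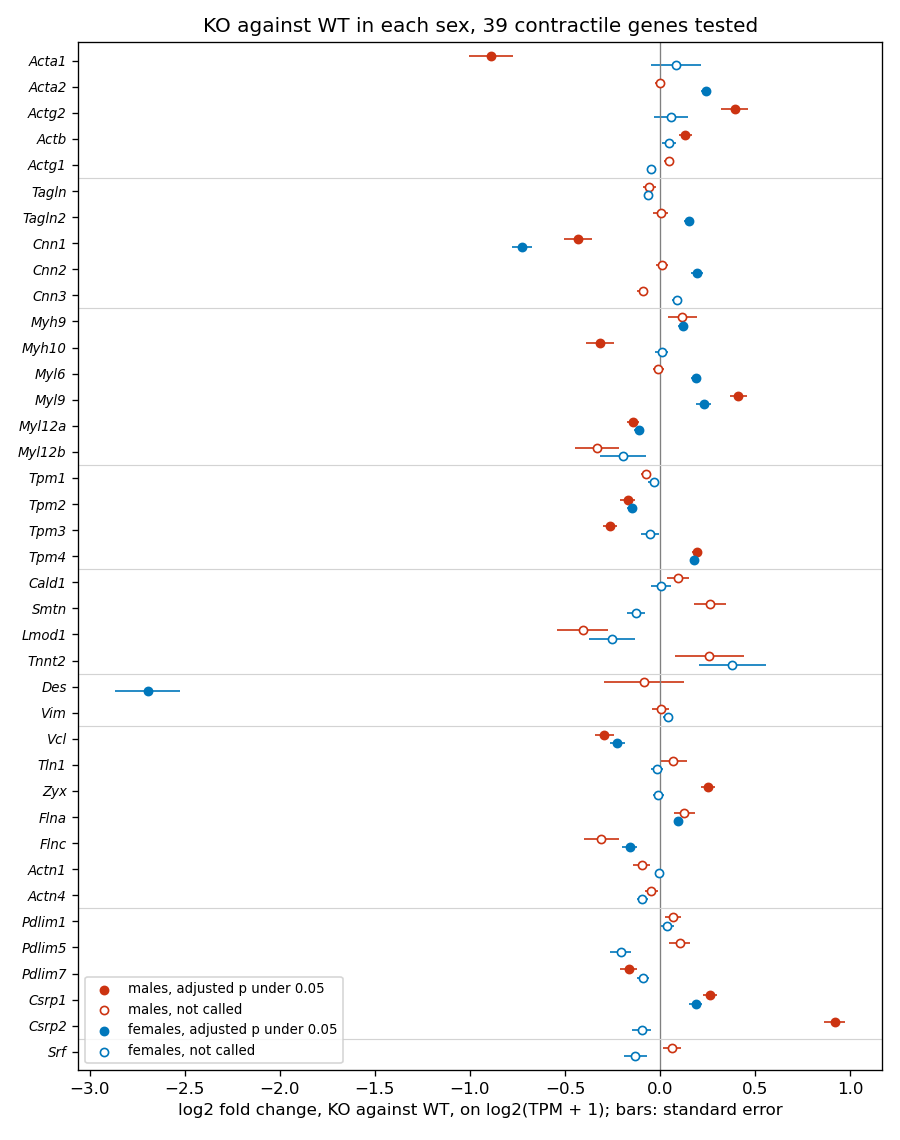
The log2 difference KO minus WT on log2(TPM + 1) is plotted along the horizontal axis for the 39 tested genes, ordered by role, with 1 point per sex and bars of 1 standard error, and filled points mark adjusted p under 0.05. Des in females is the farthest point at -2.70, Csrp2 (0.92) and Acta1 (-0.89) in males are the next, and 24 genes in each sex have open points. Des was among the tested genes only because of its level in female WT.

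The muscle-type actins are Acta2 of smooth muscle and myofibroblasts, Actg2 of enteric smooth muscle, Acta1 of skeletal muscle and Actc1 of heart. Acta2 (chr19:34241090-34255590 of GRCm38) was at 1654, 1686 and 1661 TPM in WT males and 1672, 1633 and 1691 in KO males. In female WT it was at 2047, 2012 and 2037 TPM and in female KO at 2358, 2471 and 2381. The male groups overlapped, while every female KO library lay above every female WT library. Acta2 was higher in female KO by a log2 difference of 0.24 (standard error 0.025, adjusted p = 0.00191, limma) and differed by -0.0015 in males (adjusted p = 0.977, limma). The 2 effects differed by -0.24 (adjusted p = 4.98e-04, limma).

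Acta1 (chr8:123891769-123894751) behaved in another way. Its TPM were 11.0, 10.9 and 8.87 in male WT and 4.87, 5.05 and 5.28 in male KO libraries, with no overlap. In females they were 6.92, 8.60 and 9.07 in WT and 9.67, 8.76 and 7.75 in KO, which overlapped. It was lower in male KO by a log2 difference of -0.89 (standard error 0.12, adjusted p = 0.00226, limma), differed by 0.084 in females (adjusted p = 0.73, limma), and its interaction was -0.97 (adjusted p = 0.00277, limma).

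Actg2 stood at 19.9 ± 0.621 TPM in WT males and 26.4 ± 1.68 in male KO (SD, n = 3), a log2 difference of 0.39 (adjusted p = 0.00952, limma), and at 27.9 ± 0.945 and 29.2 ± 3.41 in female WT and KO. Actc1 was at 0 in 11 of 12 libraries. Of the cytoplasmic actins, Actb was at 2379.6, 2503 and 2463 TPM in WT males, 2632, 2781 and 2640.5 in male KO, 2688, 2851 and 2683 in female WT and 2709.6, 2891 and 2896 in female KO. Its male log2 difference was 0.13 (adjusted p = 0.0312, limma), a call that was lost on leaving out any library other than male WT replicate 2, and its female difference was 0.047 (adjusted p = 0.469, limma). Actg1 ran from 3716 to 4052 TPM and passed in neither sex. The 4 muscle-type actins held 21.5 ± 0.262% of the summed TPM of the 6 actins in male WT, 20.5 ± 0.526% in male KO, 23.4 ± 0.266% in female WT and 26.6 ± 0.328% in female KO (SD, n = 3 each). Actins are close relatives, so the division of reads between their genes may be uncertain, which was not tested.

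Transgelins and calponins bind and bundle actin filaments. Calponin 1 (Cnn1, chr9:22099216-22109630), the smooth muscle calponin, was at 111, 107 and 95.5 TPM in WT males and 82.9, 73.2 and 75.6 in male KO. In females it was at 138, 154 and 145 TPM in WT and 92.1, 85.4 and 85.3 in KO. The WT and KO ranges were apart in each sex. The log2 difference was -0.43 in males (standard error 0.073, adjusted p = 0.00698, limma) and -0.72 in females (standard error 0.053, adjusted p = 5.11e-04, limma), and the difference between these did not pass (0.29, adjusted p = 0.0671, limma). The widely expressed Cnn2 and Cnn3 had negative interactions instead. Cnn2 passed as higher in female KO (0.19, adjusted p = 0.0114, limma), with 406 ± 12.3 TPM in female WT and 464 ± 7.39 in female KO, and it was 408 ± 6.24 and 410.2 ± 9.98 in male WT and KO (SD, n = 3 each). Cnn3 passed in neither sex, at 436 ± 5.50 and 409 ± 5.96 TPM in WT and KO males and 424 ± 1.47 and 452 ± 9.59 in female WT and KO.

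Tagln (chr9:45929619-45936058), also called SM22 and an early marker of smooth muscle and myofibroblasts, was at 1321, 1269 and 1240.4 TPM in WT males and 1257, 1202 and 1223 in KO males. In females it was at 1724, 1664 and 1708 TPM in WT and 1621, 1628 and 1629.9 in KO. The male ranges overlapped, and the female KO libraries were all below the WT ones. Neither difference passed, at -0.056 in males (adjusted p = 0.286, limma) and -0.063 in females (adjusted p = 0.121, limma). Its widely expressed relative Tagln2 passed as higher in female KO (0.15, adjusted p = 0.0129, limma). The ratio of Tagln to Tagln2 was 2.16 ± 0.0333 in male WT, 2.07 ± 0.0817 in male KO, 2.86 ± 0.0335 in female WT and 2.46 ± 0.0553 in female KO (SD, n = 3 each).

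**Figure D2:**
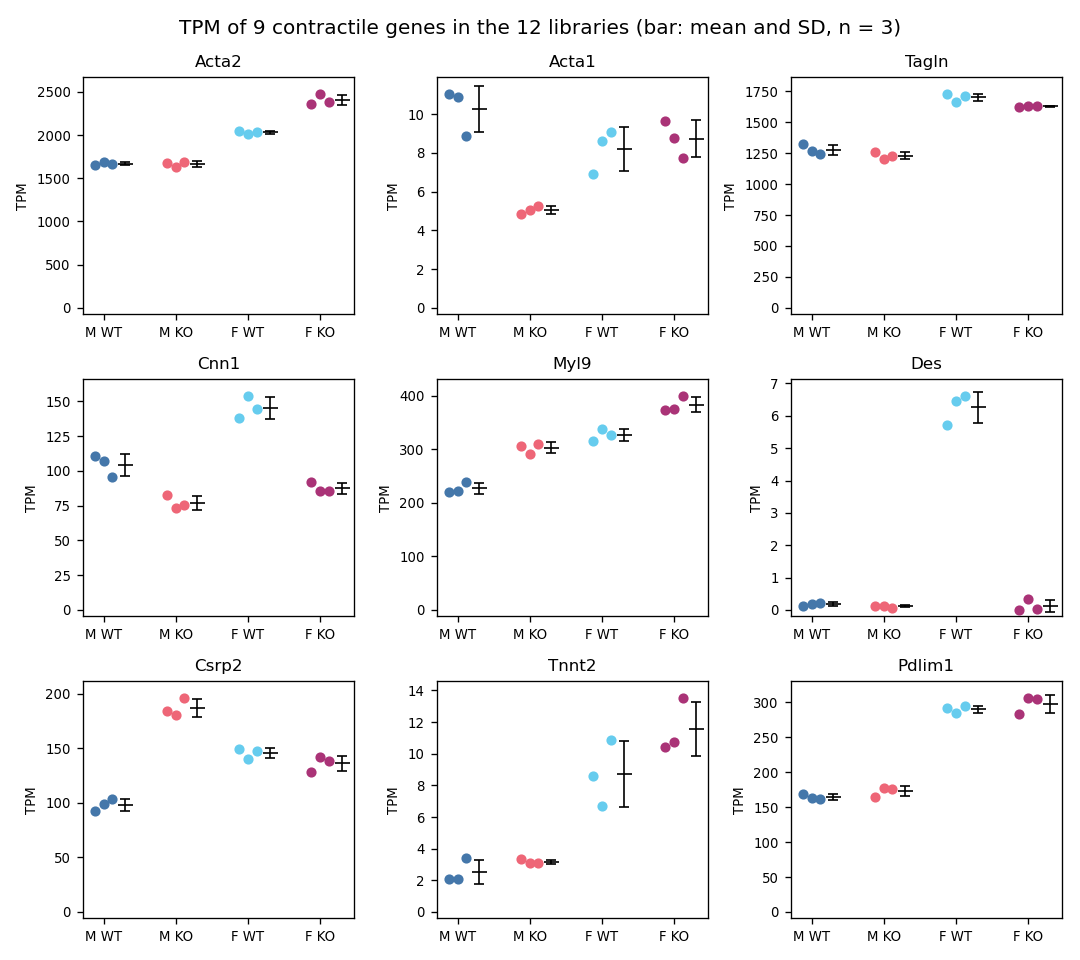
TPM on the vertical axis, from 0, is plotted for 9 genes in each of the 12 libraries (M male, F female), with the mean and SD of each group (n = 3) as bars. Des is above 5 TPM only in the 3 female WT libraries, Csrp2 is highest in male KO (187 ± 8.21), and Tagln, Tnnt2 and Pdlim1 separate the sexes in both genotypes.

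Nonmuscle myosin II is a hexamer of heavy chains (Myh9 for IIA, Myh10 for IIB), essential light chains (Myl6) and regulatory light chains (Myl9, Myl12a, Myl12b), and the kinase of the regulatory chain in smooth muscle is encoded by Mylk. Myl9 (chr2:156775420-156781658) was at 220.5, 223 and 239 TPM in WT males and 306, 291 and 311 in KO males. In females it was at 315, 338 and 326 TPM in WT and 374, 376 and 399 in KO. Groups did not overlap in either sex. Its log2 difference was 0.41 in males (standard error 0.045, adjusted p = 0.00102, limma) and 0.23 in females (standard error 0.039, adjusted p = 0.0146, limma), and the female call was lost without female WT replicate 1 or 3 (highest adjusted p = 0.0538, limma).

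Myh10 was at 125, 138 and 133 TPM in WT males and 96.7, 116 and 106 in male KO. In females it was at 132, 130.3 and 127 TPM in WT and 130.0, 133 and 128 in KO. It was lower in male KO by a log2 difference of -0.31 (standard error 0.074, adjusted p = 0.0233, limma), differed by 0.0088 in females (adjusted p = 0.898, limma), and had an interaction of -0.32 (adjusted p = 0.0265, limma). The male call was lost without male WT replicate 2 or 3 or male KO replicate 1 or 3 (highest adjusted p = 0.0779, limma). Myh10 accordingly held 16.5 ± 0.596% of the summed TPM of Myh9, Myh10 and Myh11 in male WT and 12.8 ± 0.324% in male KO, against 15.4 ± 0.321% and 14.4 ± 0.330% in female WT and KO (SD, n = 3 each).

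The other myosin genes moved by small amounts. Myh9 (0.12, adjusted p = 0.0335, limma) and Myl6 (0.19, adjusted p = 0.00623, limma) passed as higher in female KO. Myl12a passed as lower in KO of both sexes (-0.14 and -0.11, adjusted p = 0.018 and 0.0451, limma), and its female call was lost on leaving out any of the 6 libraries. Reads of Myl12a and the nearly identical Myl12b, at 32.8 to 54.6 TPM, cannot be assigned with certainty. Smooth muscle myosin heavy chain, Myh11, stood at 0.115, 0.227 and 0.189 TPM in WT males, 0.0860, 0.0942 and 0.141 in male KO, 0.451, 0.550 and 0.315 in female WT and 0.335, 0.402 and 0.377 in female KO. It thus held at most 0.0642% of the 3 heavy chains in any library, and Mylk was at or under 0.705 TPM.

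**Figure D3:**
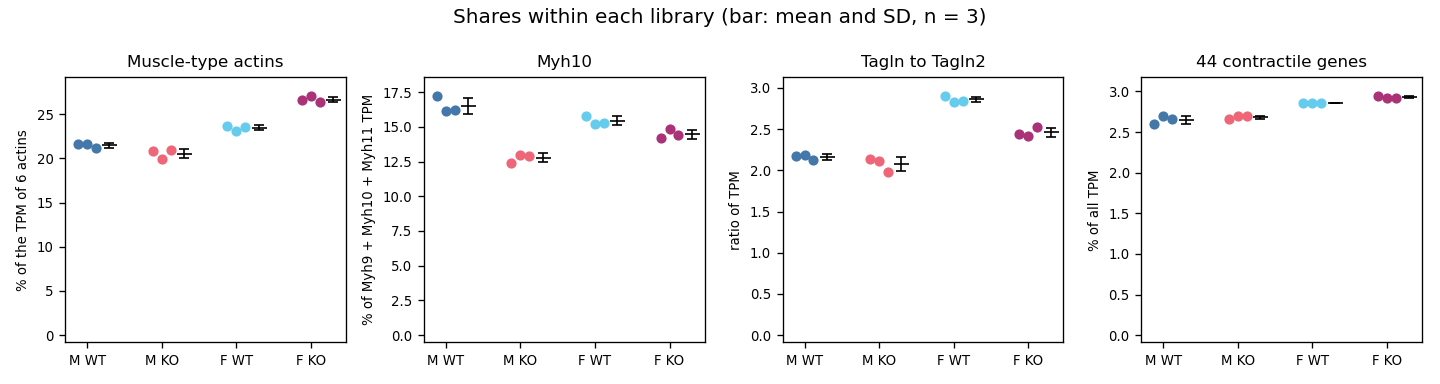
Shares within each library are plotted from 0 for the 12 libraries with the mean and SD of each group (n = 3): muscle-type actins as a percentage of 6 actins, Myh10 as a percentage of Myh9, Myh10 and Myh11, the Tagln to Tagln2 ratio, and the 44 genes as a percentage of all TPM. The actin share is highest in female KO (26.6 ± 0.328%), the Myh10 share lowest in male KO (12.8 ± 0.324%), and the Tagln ratio highest in female WT (2.86 ± 0.0335).

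Tropomyosins lie along the actin filament and set which myosins and binding proteins reach it. The 4 genes did not change alike. Tpm4 passed as higher in KO of both sexes (0.19 and 0.18, adjusted p = 0.00269 and 0.00488, limma), from 827 ± 5.13 to 946 ± 13.5 TPM in males and from 882 ± 6.02 to 999.9 ± 17.9 in females (SD, n = 3 each). Tpm2 passed as lower in both (-0.17 and -0.15, adjusted p = 0.0205 and 0.0119, limma), from 534 ± 23.7 to 474 ± 0.0776 TPM in males and from 569.7 ± 10.5 to 513 ± 2.47 in females. Its male call was lost without any 1 of 5 libraries. Tpm3 passed as lower in males (-0.26, adjusted p = 0.00368, limma), and Tpm1, the most abundant at 1529 to 1734 TPM, passed in neither sex.

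Among other thin filament genes, caldesmon (Cald1), smoothelin (Smtn), leiomodin 1 (Lmod1) and cardiac troponin T (Tnnt2) passed in neither sex. Smtn, a smooth muscle stress fibre protein, was at 80.1, 86.5 and 76.0 TPM in WT males and 87.6, 108 and 96.5 in male KO. In females it was at 80.4, 79.6 and 87.3 TPM in WT and 76.8, 76.2 and 73.1 in KO. Its log2 difference was 0.26 in males (adjusted p = 0.0724, limma) and -0.13 in females (adjusted p = 0.151, limma), and the interaction of 0.39 passed (adjusted p = 0.0296, limma).

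Desmin (Des, chr1:75360329-75368579) is the intermediate filament protein of muscle, and vimentin (Vim) that of fibroblasts. Des was at 5.71, 6.46 and 6.60 TPM in female WT and at 0, 0.344 and 0.0391 in female KO. In males it was at 0.113, 0.199 and 0.215 TPM in WT and 0.124, 0.129 and 0.0712 in KO. Female WT MEFs were therefore the one group with Des above 0.344 TPM, and both male groups lay within the range of female KO. With a mean of 1.67 TPM over the 12 libraries, Des reached the filter for testing only through female WT. Its calls below rest on that group, and its male difference is one between values near 0. The female log2 difference on log2(TPM + 1) was -2.70 (standard error 0.17, adjusted p = 2.95e-04, limma), the male difference -0.085 (adjusted p = 0.814, limma), and the interaction 2.61 (adjusted p = 3.26e-05, limma). The pseudocount understates the change of a gene at so low a level. The endothelial marker Kdr was also highest in female WT, at 4.28 to 5.08 TPM. So was the cardiac marker Nkx2-5, at 0.569 to 2.40 TPM against at most 0.471 in the other groups. The part of either in the Des result was not tested. Vim was at 2896, 3214 and 3217 TPM in WT males, 3089.7, 3059.8 and 3189 in male KO, 2994, 2982 and 3009.6 in female WT and 3148, 3009 and 3089.6 in female KO. Its log2 difference was 0.0032 in males (adjusted p = 0.971, limma) and 0.041 in females (adjusted p = 0.307, limma).

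Vinculin (Vcl) links talin to actin at focal adhesions. It stood at 230.1 ± 9.05 and 188 ± 8.20 TPM in WT and KO males and at 238 ± 9.83 and 204 ± 3.71 in female WT and KO (SD, n = 3 each). It was lower in KO males (log2 difference -0.29, adjusted p = 0.00597, limma) and in KO females (-0.22, adjusted p = 0.014, limma), the latter call being lost without female WT replicate 2 or female KO replicate 1. Zyxin (Zyx), which gathers on stress fibres under tension, was higher in male KO (0.25, adjusted p = 0.00344, limma), from 487 ± 14.2 to 581 ± 16.5 TPM, and was 692 ± 17.0 and 688 ± 15.8 in female WT and KO, with an interaction of 0.26 (adjusted p = 0.00271, limma). The actin crosslinkers filamin A (Flna, 0.095, adjusted p = 0.0351, limma) and filamin C (Flnc, -0.16, adjusted p = 0.0437, limma) passed in opposite directions in females. The Flna call was lost on leaving out any of the 6 libraries and the Flnc call on leaving out any of 5 of them. Talin 1 (Tln1) and the alpha-actinins Actn1 and Actn4 passed in neither sex.

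PDZ-LIM and LIM-only proteins dock on alpha-actinin and the filaments. Csrp2 (chr10:110919789-110939622), a LIM-only protein of smooth muscle, had the largest rise of the 39 genes in male KO. It was at 92.2, 99.2 and 103 TPM in WT males and 184, 180.2 and 196 in male KO, and at 149, 140.1 and 147 in female WT and 128, 142 and 138 in female KO. Male WT libraries were the lowest and male KO libraries the highest of the 12, and the female groups overlapped. The log2 difference was 0.92 in males (standard error 0.056, adjusted p = 6.98e-05, limma) and -0.097 in females (adjusted p = 0.26, limma), and the interaction was 1.02 (adjusted p = 5.79e-06, limma). The related Csrp1 was higher in KO of both sexes (0.26 and 0.19, adjusted p = 0.00297 and 0.02, limma), the female call being lost without any 1 of 5 libraries. Pdlim7 passed as lower in males (-0.16, adjusted p = 0.045, limma), a call lost without any 1 of 4 libraries. Pdlim1 passed in neither sex, and Pdlim5, which also passed in neither, had an interaction of 0.31 (adjusted p = 0.0213, limma). Pdlim3 was at or under 0.345 TPM.

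Of the transcription factors, Srf was at 66.7, 71.2 and 68.9 TPM in WT males, 71.0, 74.8 and 70.5 in male KO, 79.1, 74.0 and 74.1 in female WT and 74.5, 68.5 and 64.6 in female KO. Its log2 difference was 0.064 in males (adjusted p = 0.397, limma) and -0.13 in females (adjusted p = 0.23, limma). Myocardin (Myocd), the Srf cofactor of smooth muscle, was at 1.16, 0.300 and 0.415 TPM in WT males, 0.131, 0.153 and 0.212 in male KO, 0.781, 0.359 and 0.580 in female WT and 0.282, 0.928 and 0.310 in female KO. Its values were under the filter, and male KO was the group in which none exceeded 0.212 TPM.

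The sexes were then compared within each genotype, and here the contractile genes leaned one way. Between male WT and female WT 16 of 39 genes passed, against 12.8% of all genes tested. Of these 15 were lower in males (6.56% of all) and Myl6 alone was higher (6.26% of all). Des is among the 15, although it reached the filter for testing only through female WT, so its call is no support for this lean. Between male KO and female KO 17 passed, against 16.6% of all genes tested, with 15 lower in males (8.39% of all) and 2, Smtn and Csrp2, higher (8.17% of all). The median log2 difference of the 39 genes was -0.093 in WT and -0.12 in KO, against -0.018 and -0.013 for all genes. Among the 3520 genes averaging 50 TPM or more, 17.7% passed in WT and 22% in KO, with 8.98% and 12.3% lower in males. Of the 33 contractile genes at that level, 12 were lower in males in WT and 13 in KO. Leaving out 1 library at a time gave 11 to 15 calls in WT and 12 to 18 in KO.

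The 2 comparisons have no library in common. 10 genes passed in both, which is 62.5% of the 16 called in WT and 58.8% of the 17 called in KO, while 708 of all 12504 genes did (44.2% and 34.2%). Acta2, Tagln, Myl9, Cald1, Tnnt2, Zyx, Flna, Pdlim1 and Pdlim7 were lower in males in both genotypes, 9 of 39 genes (23.1%) against 281 of all genes (2.25%). The WT calls of Flna and Pdlim7 were each lost without any 1 of 5 libraries. Csrp2 was the exception, with -0.56 in WT (adjusted p = 8.64e-04, limma) and 0.45 in KO (adjusted p = 0.0016, limma).

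The largest of the shared differences was that of Tnnt2, the cardiac troponin T gene. It was at 2.06, 2.11 and 3.43 TPM in WT males and 3.32, 3.10 and 3.07 in male KO, against 8.61, 6.71 and 10.9 in female WT and 10.4, 10.7 and 13.5 in female KO. Every male library was under every female library. The log2 difference male minus female was -1.46 in WT (adjusted p = 0.00597, limma) and -1.59 in KO (adjusted p = 2.57e-04, limma). Pdlim1 followed with -0.82 in WT (adjusted p = 2.12e-05, limma) and -0.79 in KO (adjusted p = 7.56e-05, limma), at 162 to 177 TPM over the 6 male libraries and 283 to 306 over the 6 female ones. Tagln differed by -0.41 in each genotype (adjusted p = 3.86e-04 in WT and 8.38e-05 in KO, limma), and Acta2 by -0.29 in WT and -0.53 in KO (adjusted p = 4.55e-04 and 3.89e-05, limma). Myl9 differed by -0.52 in WT and -0.34 in KO (adjusted p = 5.76e-04 and 0.00176, limma), Cald1 by -0.48 and -0.39 (adjusted p = 0.00165 and 0.00439, limma), and Zyx by -0.51 and -0.24 (adjusted p = 1.93e-04 and 0.003, limma). Flna, which lies on the X chromosome, differed by -0.24 in WT and -0.20 in KO (adjusted p = 0.0293 and 0.00437, limma), and its call in WT was lost when a library was left out. With possibly 1 line per sex and genotype, these are differences between lines of either sex.

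**Figure D4:**
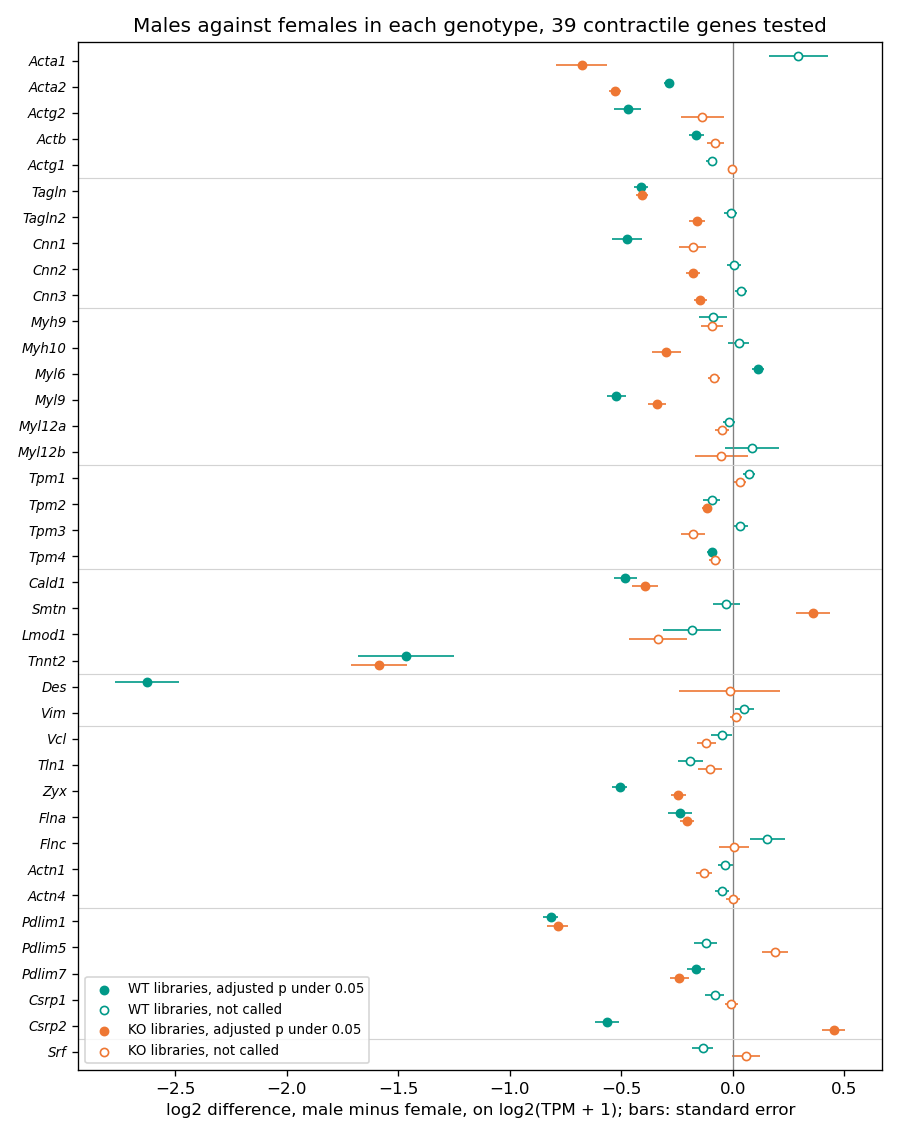
The log2 difference male minus female on log2(TPM + 1) is plotted along the horizontal axis for the 39 tested genes, with 1 point per genotype and bars of 1 standard error, and filled points mark adjusted p under 0.05. Filled points lie left of 0 for 15 genes in each genotype, Tnnt2 and Pdlim1 lie far left in both, and Des lies far left in WT (-2.63) only. Des was among the tested genes only because of its level in female WT.

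Genes around the actomyosin machinery were described from lists, without a test of any list. The shares of all genes tested that passed, against which these counts stand, were 21.6% in males (10.7% higher and 10.9% lower in KO) and 11.5% in females (5.63% higher and 5.84% lower). Of 11 actin turnover and nucleation genes 3 passed in males, the cofilins Cfl1 (-0.12) and Cfl2 (-0.45) and profilin 1 (Pfn1, -0.22), all lower, and 2 in females, Tmsb4x (0.27) higher and Capzb (-0.10) lower. Of 6 Srf cofactor genes 1 passed in each sex, Elk3 in males (-0.26) and Mrtfa in females (-0.45), both lower. With 3 and 2 of 11 and 1 of 6 genes, these KO shares in either direction differ from those of all genes by few genes. The 3 male calls were all lower, against 10.9% of all. The interaction passed for 5 of the 11 actin turnover genes, 1 positive and 4 negative, against 13.0% of all genes tested. It passed for 2 of the 6 Srf cofactor genes, 1 in each direction (6.70% of all positive and 6.33% negative).

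Immediate early and other Srf target genes were described in the same way. Of 11 genes 7 passed in female KO, all lower (5.84% of all genes tested were), with a median log2 difference of -0.31 against -0.023 for all genes, among them the matricellular genes Ccn1 (-0.31) and Ccn2 (-0.61) and Egr1 (-0.34). In male KO 4 passed, Fos (0.59) and Junb (0.32) higher (10.7% of all) and Ccn2 (-0.37) and the LIM-only gene Fhl1 (-1.35) lower (10.9% of all), with a median of 0.059. The interaction passed for 6 of the 11 (13.0% of all genes tested), positive in 5 (6.70% of all). Of 15 tested genes of 16 other adhesion and stress fibre proteins, 4 passed as higher and 3 as lower in males (10.7% and 10.9% of all genes tested) and 3 as higher and 2 as lower in females (5.63% and 5.84% of all).

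Among 10 myofibroblast matrix and secreted markers 6 passed as higher and 1 as lower in male KO (10.7% and 10.9% of all genes tested), with a median log2 difference of 0.46 against -0.015 for all genes. In female KO 3 passed as higher and 5 as lower (5.63% and 5.84% of all), with a median of -0.0035 against -0.023. Periostin (Postn) was higher in both, by 2.17 in males and 2.13 in females (adjusted p = 1.01e-06 and 4.40e-07, limma). Cthrc1 was higher in male KO (1.70) and lower in female KO (-1.14), with an interaction of 2.84 (adjusted p = 3.60e-08, limma). Tgfbi was higher by 2.43 in males and 0.55 in females, and Itga11 passed in females with 1.17. In males the differences of Postn, Cthrc1 and Tgfbi were larger than that of any of the 39 contractile genes.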

How the data were processed

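MEFs were seeded in triplicate and polyadenylated RNA was sequenced. The authors quantified reads with Salmon (1.10.1 in the processing notes) against GRCm38 and deposited TPM for 34866 genes. No column was left unused. Gene symbols and positions came from GENCODE for GRCm38, to which 99.2% of the identifiers matched, 93.4% with the same version. Since these are no counts, the count test that the study's methods name was replaced by limma (3.58.1, R 4.3.3), fitted to log2(TPM + 1) of the 12504 genes that averaged 1 TPM or more, with moderated variances following a mean-variance trend. Pairwise comparisons used 6 libraries and the sex by genotype interaction used 12. Calls were made at a Benjamini-Hochberg adjusted p under 0.05. All 12 libraries correlated best with one of their own group, and 0 pairs were identical.

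The genes and lists were chosen with earlier results of these data known. Values in every library are given for genes called between KO and WT with an absolute log2 difference of at least 0.5, the 5 called genes with the largest interaction, and Acta2, Tagln, Cnn1, Myh11, Myl9, Myocd, Srf, Vim and Actb, and Tnnt2 was added after its values were seen. Other genes are named from the lists where the absolute log2 difference was at least 1 or as examples. The limma code was tested on simulated data. Alternatives were a pseudocount of 0.1, no filter or one at 5 TPM, scaling by median-of-ratios or by quantiles, a variance without trend, 1 fit over all libraries, a replicate block, and leaving out each library. The proteins of the actins were not analysed here. The result of 1 gene list is not reported here.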

Additional observations from a re-analysis of the deposited data

Results flagged for a closer look

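The KO effect differed between the sexes for 11 of the 39 tested genes by limma's interaction test. The male KO effect minus the female KO effect, as a log2 difference, was 2.61 for Des, 1.02 for Csrp2, 0.39 for Smtn, 0.31 for Pdlim5 and 0.26 for Zyx, and -0.97 for Acta1, -0.32 for Myh10, -0.24 for Acta2, -0.20 for Myl6, -0.18 for Cnn2 and -0.18 for Cnn3. The difference of Des came from female WT libraries, at 5.71 to 6.60 TPM, against at most 0.344 TPM in the other 9 libraries. Des also reached the filter for testing only through that group. Csrp2 differed in order between the sexes, being lower in males than females in WT and higher in KO. Those of Smtn, Myh10 and Pdlim5 lost significance when 1 library was left out, and the other 8 did not. Groups of 3 libraries are too small to single out 1 library as far from the rest.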

How the results depend on the processing

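The male count of 15 genes ran from 11 to 19 over the alternatives and from 11 to 13 with 1 library left out, and the female count of 15 fell to 3 without a mean-variance trend, to 7 with a replicate block, and to between 9 and 11 with 1 library left out. The sex counts ran from 11 to 18 in WT and 12 to 22 in KO, and the interaction count from 8 to 12. The summed TPM of the 44 genes was 710 higher in female KO than in female WT, and 1160 higher after median-of-ratios scaling. Leaving out 1 library at a time, 10 of 15 male calls, 8 of 15 female, 11 of 16 and 12 of 17 between the sexes in WT and KO, and 8 of 11 interactions held throughout, and 0 changed sign. Calls lost were Actb, Myh10, Myl12a, Tpm2 and Pdlim7 in males, Myh9, Myl9, Myl12a, Vcl, Flna, Flnc and Csrp1 in females, Actb, Myl6, Tpm4, Flna and Pdlim7 between WT sexes, Tagln2, Cnn3, Myh10, Tpm2 and Smtn between KO sexes, and Myh10, Smtn and Pdlim5 in the interaction.

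Some differences that passed neither as reported nor under these settings turned sign: in males Acta2 (0.014 with median-of-ratios scaling, 0.039 with quantile normalization, -0.013 to 0.013 with 1 library left out), Des (0.057 with quantile normalization) and Vim (-0.023 with quantile normalization, -0.047 to 0.029 with 1 library left out), and in females Vim (-0.059) and Actb (-0.035) with quantile normalization and Acta1 (-0.020 to 0.16) and Myh10 (-0.0077 to 0.022) with 1 library left out. The cause was not tested. Same-numbered libraries deviated together with a mean r of -0.0091 in males, 0.0014 in females, 0.017 between WT sexes and -0.0062 between KO sexes. Single values ran from -0.057 to 0.078. Nothing shared beyond the number is stated for them, and a mean over all genes cannot exclude it. With the replicate block the counts were 17 in males, 7 in females, 13 and 14 between the sexes in WT and KO, and 11 in the interaction. No scaling moved the median of all genes by more than 0.022. Depth is unknown and genes near 0 are the least certain.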
